A study of Mus musculus with 8 samples.

Results

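Methylation was described at 10 apolipoprotein genes in mouse liver, Apoa1, Apoa2, Apoa4, Apoa5, Apob, Apoc1, Apoc3, Apoe, Apoh and Apom. They are 10 of the 22367 protein-coding genes of the GENCODE annotation of the mm9 genome (NCBIM37), and they were taken from the family by name, without use of any methylation value. Earlier results of these data were known when they were chosen. Other genes of the family, such as Apoc2, Apoc4, Apod and Apon, were not among them. For each gene, the CGs in its body and in 5 kb on each side were read, which is called its window here. Reduced representation bisulfite sequencing (RRBS) had been done on liver DNA of 8 mice, 1 female and 1 male each of C57BL/6J (B6), DBA/2J (DBA) and their reciprocal F1 crosses BXD (C57BL/6JxDBA/2J, with a B6 mother) and DXB (DBA/2JxC57BL/6J, with a DBA mother). The B6 and DBA mice are of inbred strains, and an F1 mouse of these crosses carries 1 chromosome set of each strain. The mice of all groups were 16 weeks old and had been fasted for 16 h, and no group was treated otherwise. RRBS cuts DNA with MspI at CCGG, reads the fragments after bisulfite has turned unmethylated cytosines into thymine, and takes the percentage of reads with a cytosine left at a position as its methylation level. Each cytosine of a CG, on either strand, was 1 site.

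Apolipoproteins are the protein part of lipoproteins, the particles that carry triglyceride and cholesterol through the blood. Hepatocytes make most of them, and the genes lie partly in clusters, with Apoa1, Apoc3, Apoa4 and Apoa5 next to each other and Apoc1 beside Apoe. In mammals, CpG islands at gene starts are mostly unmethylated, while CGs outside islands are mostly methylated, and many genes that are active in a single tissue start in DNA with few CGs.

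The windows held 313 CG sites with at least 10 reads in any mouse, of 1411453 such sites in the genome. Of these, 199 had 10 reads in at least 4 mice (875733 in the genome) and 42 in all 8 mice (176951). The number per gene with 10 reads in at least 4 mice was 66 in Apoh, 38 in Apoe, 38 in Apom, 25 in Apoa2, 10 in Apoa4, 8 in Apob, 7 in Apoa5, 5 in Apoc1 and 2 in Apoa1. Apoc3 shared the 2 sites of Apoa1, because the 5 kb flanks of these neighbours overlap. In all 8 mice, only Apoh (18 sites), Apom (12) and Apoe (7) had at least 3 such sites. Apoa4 had 2 sites in all 8 mice, Apoa2, Apob and the shared Apoa1 and Apoc3 stretch had 1, and Apoa5 and Apoc1 had none.

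The sequences at which the levels were read are given for the stretches on which the results turn. They are from the NCBIM37 (mm9) genome, which is the B6 sequence, 5′ to 3′ on the strand named, and none of them overlaps an exon. Capitals mark the CGs with 10 reads in at least 4 mice or with a strain difference between the female parents. The stretch upstream of Apob and the one in the first intron of Apoe are shown because they lie near a member's own start, though the Apoe window has read sites still nearer to it.
Apob upstream, chr12:7984081-7984380, plus strand: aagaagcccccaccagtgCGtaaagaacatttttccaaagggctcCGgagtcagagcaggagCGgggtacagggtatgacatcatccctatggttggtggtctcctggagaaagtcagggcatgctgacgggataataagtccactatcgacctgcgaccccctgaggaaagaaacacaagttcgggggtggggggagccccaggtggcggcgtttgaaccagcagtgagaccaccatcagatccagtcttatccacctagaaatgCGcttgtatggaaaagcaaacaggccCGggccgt
Apoe first intron, chr7:20284120-20284294, minus strand: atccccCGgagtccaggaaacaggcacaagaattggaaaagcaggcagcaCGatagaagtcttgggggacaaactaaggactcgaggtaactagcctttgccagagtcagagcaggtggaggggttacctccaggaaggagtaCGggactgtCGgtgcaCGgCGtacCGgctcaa
The stretch between Apoa1 and Apoc3 is the only part of either window that was read.
Apoa1 and Apoc3 between genes, chr9:46040183-46040337, plus strand: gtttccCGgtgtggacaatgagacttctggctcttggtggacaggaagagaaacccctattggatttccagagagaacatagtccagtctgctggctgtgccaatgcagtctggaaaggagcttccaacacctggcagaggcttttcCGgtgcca
The stretch past the end of Apoa4 is shown as the place where most of its sites were read.
Apoa4 past the gene end, chr9:46051627-46051926, plus strand: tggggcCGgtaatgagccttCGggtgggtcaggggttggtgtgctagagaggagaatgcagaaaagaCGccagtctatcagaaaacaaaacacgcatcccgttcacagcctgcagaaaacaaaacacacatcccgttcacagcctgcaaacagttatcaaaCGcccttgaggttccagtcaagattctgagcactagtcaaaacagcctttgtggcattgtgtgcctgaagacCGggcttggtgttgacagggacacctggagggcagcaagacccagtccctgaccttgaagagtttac
The last 3 are shown because they hold CGs that differed between the female parents.
Apoc1 past the gene end, chr7:20274411-20274550, minus strand: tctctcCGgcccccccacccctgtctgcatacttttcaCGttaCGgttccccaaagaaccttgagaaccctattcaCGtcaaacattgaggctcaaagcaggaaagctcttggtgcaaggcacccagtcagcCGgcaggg
Apoa2 window, intron of Fcer1g, chr1:173160798-173161075, plus strand: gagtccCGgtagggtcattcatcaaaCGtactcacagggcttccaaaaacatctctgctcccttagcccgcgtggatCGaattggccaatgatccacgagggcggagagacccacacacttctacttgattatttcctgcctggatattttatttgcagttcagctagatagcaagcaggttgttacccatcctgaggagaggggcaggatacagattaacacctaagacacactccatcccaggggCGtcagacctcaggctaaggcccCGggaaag
Apoh long intron, chr11:108213439-108213619, plus strand: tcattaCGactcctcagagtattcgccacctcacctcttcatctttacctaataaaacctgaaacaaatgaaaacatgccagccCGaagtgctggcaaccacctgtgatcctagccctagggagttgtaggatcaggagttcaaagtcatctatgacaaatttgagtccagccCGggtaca

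The libraries held from 200744653 (DBA male) to 845527087 (BXD male) cytosine calls, and 527351 (DBA male) to 1227747 (B6 female) CG sites with 10 reads. In the windows of the 10 genes the B6 female had the most sites with 10 reads (286) and the DBA male the fewest (97). Reads with a SNP had been assigned by the authors to a strain, and in the library labelled B6 male 16.1% of these calls carried a DBA tag, against 0.338% in the B6 female. Within 250 kb of Apoh this share was 48.2% in the library labelled B6 male, so the window means and fits of Apoh are given with and without it. Near Apoa2 it was 3.54%, and near Apob there were no sorted reads. Expression was not measured in these files, so the labelled tissue could be described only by the methylation of marker genes. Of 4 hepatocyte markers only Ahsg had 3 CGs in all 8 mice, at 28.8 ± 5.61% (SD, n = 8 mice), and the T cell marker Cd3e was at 98.6 ± 1.08%. Of markers of other liver cells, Krt19 (bile duct cells) was at 14.5 ± 1.48%, Epcam (bile duct cells) at 94.4 ± 1.54%, and Cdh5 and Pecam1 (endothelial cells) at 57.6 ± 2.30% and 93.6 ± 1.82%. Low and high levels occurred among the markers of cells other than hepatocytes, so these levels do not check the labelled tissue.

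The 10 genes start in DNA that is poor in CG. In the 500 bases on each side of the start, the ratio of observed to expected CGs ran from 0.130 at Apoc3, an inhibitor of lipoprotein lipase, to 0.380 at Apoe, the ligand through which remnant particles are taken up by the liver. All 10 lay below 0.6, as did 54.4% of 22364 protein-coding genes, whose median was 0.549. The 10 genes were measured at the RefSeq start where there was one, and all other genes at the GENCODE start. MspI sites were not rare in the windows, with a median of 11.5 per 10 kb against 8.81 over all genes. Within 1 kb of the start, however, sites with 10 reads in at least 4 mice were found for only 3 of the 10 genes, Apoe (21 sites), Apob (7) and Apoa4 (2). Sites within 1 kb of either the RefSeq or the GENCODE start were counted here, except at Apoh. The GENCODE start of Apoh lies in the CpG island of another gene, Prkca, and was left out. For Apoa1, Apoa2, Apoa5, Apoc1, Apoc3, Apoh and Apom no CG within 1 kb of the starts so counted had 10 reads in any mouse. Each of these stretches nevertheless holds 20 to 48 CG pairs and 1 to 7 MspI sites. What is written of these 7 genes therefore concerns other places in their windows.

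**Figure D1:**
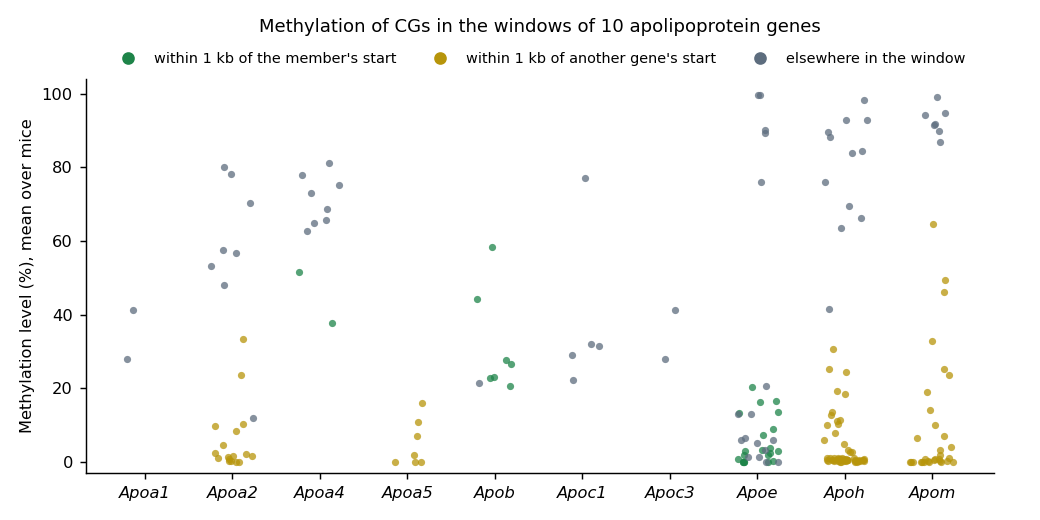
Methylation level (%, mean over the mice with 10 reads) of each CG with 10 reads in at least 4 mice, by gene, coloured by whether it lies within 1 kb of the gene's own start, within 1 kb of another gene's start, or elsewhere. The CGs at own starts are low in Apoe (0 to 20.4%) and at 20.7% to 58.4% in Apob, and most points near 0 in the other windows belong to the starts of other genes. Apoa1 and Apoc3 show the same pair of CGs.

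Over the 199 sites with 10 reads in at least 4 mice the median level was 6.00%, with 65.3% of sites below 20% and 9.55% above 80%. Over all such CGs in the genome the median was 55.6%, with 41.3% below 20%. The low levels came mostly from neighbours of the apolipoprotein genes. Of the 199 sites, 109 lay within 1 kb of the start of another gene, with a median of 0.848%, and 60 lay away from any start, with a median of 67.4%. The 109 include 54 sites of the Prkca island, in which the GENCODE record of Apoh starts. The 30 sites at a member's own start had a median of 8.02%, and 66.7% of them were below 20%, against a median of 0.741% and 91.2% below 20% for the 267018 CGs near any protein-coding start. All of those below 20% were in Apoe, which gave 21 of the 30 sites. The lowest was 20.7% in Apob and 37.6% in Apoa4, so the share depends on how many sites each gene gave.

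With the GENCODE start of Apoh left out, Apoe had the only low-methylated start that was read. Its 21 sites between 115 and 807 bases downstream of the start (chr7:20283730-20284422, in untranslated exon and intron) had levels from 0 to 20.4% with a median of 2.86%. Runs of at least 3 neighbouring sites below 20% were counted as low-methylated stretches. With 10 reads in all 8 mice there were 3 such stretches in the windows, and only that of Apoe (chr7:20284126-20284288, 7 sites in the first intron, mean 4.79%) was at a member's own start. The others were 17 sites at 1.74% in the window of Apoh (chr11:108204273-108204965) and 7 sites at 2.74% in that of Apom (chr17:35263247-35263293, in the untranslated region of Gm20522 at the start of D17H6S53E). With 10 reads in at least 4 mice there were 10 stretches, and the only ones at a member's own start were again those of Apoe (chr7:20283730-20284244 and chr7:20284288-20284422).

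In the first intron of Apoe, the mean over the 7 sites was 3.30% in the B6 female and 6.60% in the B6 male. It was 1.36% in the DBA female, 4.12% in the DBA male, 12.1% in the BXD female, 2.40% in the BXD male, 6.36% in the DXB female and 2.10% in the DXB male. The groups overlapped, and the BXD female was highest. There 4 of the 7 sites stood at 13.8% with 29 reads each, while in the DBA female 6 of the 7 were at 0. At chr7:20284288, which belongs to an MspI CCGG, levels ran from 5.88% (DXB female) to 25% (B6 male), against 0 to 2.94% at the next site of the same strand, chr7:20284244. In the BXD female, however, the sites at 13.8% included CGs outside MspI sites. Without MspI sites the mean over the 5 other CGs was 2.62 ± 3.8% (SD, n = 8 mice), against 4.79 ± 3.52% with them. Over all libraries, MspI CGs with a neighbour below 5% within 50 bases averaged from 8.53% in the DXB female to 22.2% in the DBA male, and in the windows of the 10 genes from 7.46% to 18.2%.

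The other sites of the Apoe window lay in Tomm40 or between it and Apoe. Tomm40 is a subunit of the mitochondrial import pore, and its gene ends next to Apoe. A group of 12 sites at the end of Tomm40 had a median of 5.50% (chr7:20286515-20286914, partly in its 3′ untranslated region and partly between the genes). A group of 5 sites in Tomm40 (chr7:20288407-20288669) was methylated, with a median of 90.1%. From the start of Apoe outwards the levels thus went from low to high within 5 kb.

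**Figure D2:**
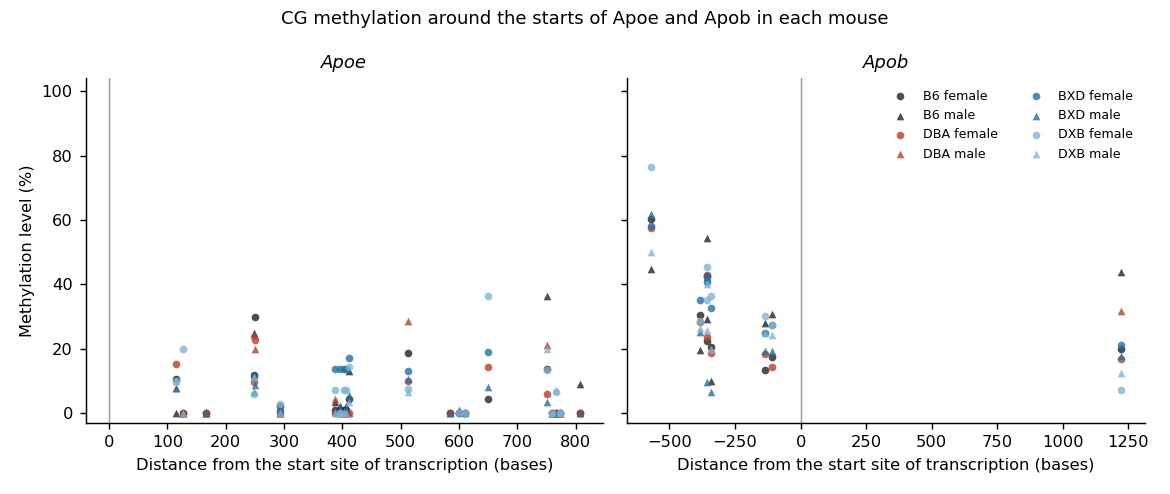
Methylation level (%) of each CG in each mouse against its distance in bases from the start of Apoe (left) and Apob (right), for CGs with 10 reads in at least 4 mice. The gray line marks the start. Most of the Apoe points lie below 20%, whereas those upstream of Apob lie between 6.45% and 76.5%.

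Apob encodes the structural protein of very low density and low density lipoproteins. The 7 sites read upstream of its start (chr12:7983911-7984374) were partly methylated in every mouse in which they were read. Their mean was 29.6% in the B6 female, 30.9% in the B6 male, 29.1% in the DBA female, 37.3% in the BXD female, 26.3% in the BXD male, 39.9% in the DXB female and 30.2% in the DXB male. The DBA male did not reach 10 reads there. The mean over these 7 mice was 31.9% with an SD of 4.85, so the mice differed less than the sites did. By site, the level fell from 58.4% at 572 bases upstream to 23.0% at 109 bases upstream, though not steadily. The CG 383 bases upstream was at 27.7%, the pair of cytosines 357 and 356 bases upstream at 26.6% and 44.3%, that at 340 bases at 20.7% and that at 135 bases at 22.7%. Downstream, the only site with enough reads was in an intron at chr12:7985706, 1223 bases past the start, with a mean of 21.3%. There the level was 20% in the B6 female, 43.8% in the B6 male, 16.7% in the DBA female, 31.8% in the DBA male, 21.1% in the BXD female, 17.7% in the BXD male, 7.14% in the DXB female and 12.5% in the DXB male. The males of both parent strains were above their females there, which held in DXB but not in BXD.

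The cluster on chromosome 9 was read at few places. Between Apoa1, the main protein of high density lipoprotein, and Apoc3, the CG at chr9:46040189 lies 3476 bases past the start of Apoa1. It was at 21.7% in the B6 female, 5.56% in the B6 male, 38.5% in the DBA female, 6.82% in the DBA male, 33.3% in the BXD female, 33.7% in the BXD male, 50% in the DXB female and 33.3% in the DXB male, on 12 to 89 reads. The F1 mice were at 33.3% or more and the parents at 38.5% or less, with the DBA female among the F1 values. The second site, chr9:46040331, had a mean of 41.3% over 7 mice. Both sites belong to an MspI CCGG, so no CG outside MspI sites was read for Apoa1 and Apoc3.

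Apoa4, a protein of chylomicrons and high density lipoprotein, had 2 sites in its coding exon, at 37.6% (chr9:46049284) and 51.6% (chr9:46049557). The second of these ranged from 29.4% in the B6 male to 70% in the B6 female, on 17 and 60 reads. Past the end of the gene, 8 sites (chr9:46051633-46052025) were at 62.6% to 81.2%, with a median of 70.8%. Apoa5, which raises the activity of lipoprotein lipase, was read only at the start of its neighbour Zfp259 (chr9:46080873-46081183), where 7 sites had a median of 1.79%.

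The remaining windows were read mainly at other genes. In that of Apoa2, another protein of high density lipoprotein, 17 sites near the start of Tomm40l had a median of 1.63%, 4 sites in Tomm40l one of 50.6%, and the 4 in an intron of Fcer1g were at 56.6% to 79.9%. Apoc1, a small protein of triglyceride-rich particles, was read only past its end, at 5 sites of 22.2% to 77.0%. In the GENCODE annotation the record of Apoh, a plasma protein that binds phospholipid, starts at position 108204668 of chromosome 11, inside the CpG island of Prkca, while RefSeq places its start at 108256611. The 54 sites of that island had a median of 0.697%. Between the island and the RefSeq start, the sites in the long intron of this record were methylated, with 41.6% to 92.8% in a group of 4 and a median of 75.9% in a group of 3. The 41.6%, like the 56.6% in the intron of Fcer1g, is a mean over mice at a CG that was at 0 in the DBA female and differed between the strains. In the window of Apom, which carries sphingosine phosphate on high density lipoprotein, the sites lay in Gpank1 (6 sites, median 91.6%), at the start of D17H6S53E (14 sites, at most 25.1%), in D17H6S53E (7 sites, 6.51% to 64.7%) and at the start of Bag6 (10 sites in a low-methylated stretch, mean 2.56%). The site nearest to Apom itself, chr17:35270439, lies 1693 bases upstream of its RefSeq start and was at 94.6%.

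Means over a window were compared between the mice for genes with at least 3 CGs read 10 times in all 8 mice, which 12337 protein-coding genes had and 3 of the 10 members. The mean was 4.79 ± 3.52% for Apoe, 6.34 ± 0.729% for Apoh and 15.1 ± 1.89% for Apom (SD, n = 8 mice), against a median of 27.4% over all genes. For Apoh it was 5.98% in the B6 female, 7.98% in the B6 male, 5.66% in the DBA female, 6.11% in the DBA male, 6.54% in the BXD female, 5.78% in the BXD male, 6.22% in the DXB female and 6.46% in the DXB male. For Apom it was 14.1%, 18.8%, 14.9%, 15.9%, 16.4%, 13.5%, 13.2% and 13.9% in the same order. The library labelled B6 male was the highest of the 8 for both, and the groups overlapped. Without it the mean of Apoh was 6.11%. These means depended on which CGs were read, with 0.369% for Apoh outside MspI sites and 12% over the 35 CGs read without the DBA male, and for Apom 9.24% with 10 kb flanks and 24.5% weighted by coverage. For Apoh and Apom these means describe the starts of their neighbours more than the genes themselves.

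**Figure D3:**
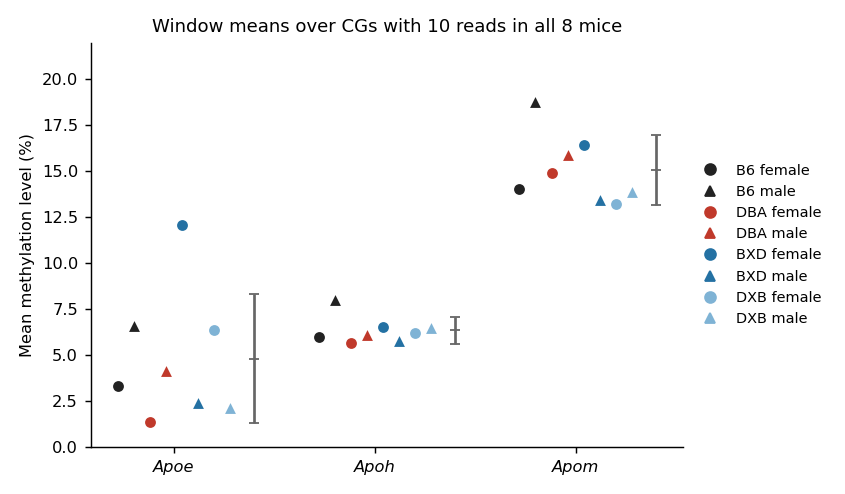
Mean methylation level (%) over the CGs with 10 reads in all 8 mice, for the windows of Apoe, Apoh and Apom. Each point is a mouse, circles are females and triangles males, and the gray bar is the mean ± SD of the 8 mice. The values run from 1.36% to 12.1% in Apoe, from 5.66% to 7.98% in Apoh and from 13.2% to 18.8% in Apom, with no separation of the strains.

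The strains were compared first by the rule used for single cytosines in this study. A CG with at least 10 reads in both mice was called when each level was outside the exact 95% binomial interval of the other and the levels were more than 50 percentage points apart. With 1 mouse on each side the rule compares 2 libraries and holds counting error only. Between the female parents, 7 of 223 CGs in the windows were called, against 0.549% of the 887174 CGs tested in the genome. Of these, 5 were higher in B6 (0.498% in the genome) and 2 higher in DBA (0.0505%). They fell into 3 windows, with 3 in Apoh, 2 in Apoa2 and 2 in Apoc1, and the called CGs of a window are neighbours in 1 stretch, so the calls are not independent. Between the male parents 0 of 72 CGs were called, against 0.423% of 323010. Of the 7 CGs called in females, 0 had 10 reads in both males, so the male pair does not test them, and 24 of the 72 lie in the window of Apoh. That window held no sorted calls of the library labelled B6 male, whose share of DBA tags there is known only from the 250 kb around the gene. At a difference above 30 points the male pair had 1 call of 72, against 1.54% over all CGs, at chr11:108246057 in the long intron of Apoh (94.1% in the library labelled B6 male and 56.3% in the DBA male).

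Over all the CGs tested, the called ones included, the median absolute difference between the female parents was 1.20 percentage points in the windows and 2.50 over all CGs, and 88.3% against 84.9% of the CGs lay within 10 points. The windows hold more low sites, with 65.3% below 20% against 41.3% in the genome at 10 reads in at least 4 mice. Of the 223 CGs, 62 were equal in both females. Levels near 0 cannot differ by much, so these shares do not compare the strains at like levels. In Apoe 43 of 44 CGs, in Apob 11 of 11, in Apom 38 of 38, in Apoa5 7 of 7 and in Apoh 69 of 78 were within 10 points. The share was lower in Apoa2 (17 of 24), Apoa4 (11 of 15), the site pair shared by Apoa1 and Apoc3 (1 of 2) and Apoc1 (0 of 4). Between the male parents the share was 86.1% in the windows and 84.0% over all CGs. Between the females, 4 CGs that were not called differed by more than 30 points.

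In the window of Apoa2 both called CGs lie in an intron of Fcer1g, a signalling subunit of Fc receptors. At chr1:173160875 the level was 87.0% of 23 reads in the B6 female and 0 of 60 reads in the DBA female (upper 95% limit 5.96%). At chr1:173161046, on the minus strand, it was 90.9% of 44 reads in the B6 female, 88.5% of 26 in the B6 male, 0 of 38 in the DBA female (upper limit 9.25%), 44.3% of 79 in the BXD female, 58.8% of 34 in the DXB female and 57.1% of 49 in the DXB male. The F1 mice lay between the parents, and the other 2 males had fewer than 10 reads. The next CG of the same strand, chr1:173161069, was at 84.1% in the B6 female, 88.5% in the B6 male and 63.2% in the DBA female, with 72.0% to 85.3% in the 3 F1 mice. The sequence of the Fcer1g intron above thus holds a CG at 0 in DBA beside CGs that are methylated in both strains.

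Because the reads of this stretch hold SNPs, both chromosomes could be read within the F1 mice. At chr1:173161046 the B6 chromosome was at 77.3% (44 reads) in the BXD female, 90.9% (22) in the DXB female and 92.9% (28) in the DXB male. The DBA chromosome was at 0 in all 3, on 34, 12 and 19 reads. At chr1:173161069 the B6 chromosome was at 86.4%, 86.4% and 82.1% and the DBA chromosome at 61.8%, 83.3% and 63.2% in the same mice. By the rule above applied to the sorted reads, the former was called in each of these mice and the latter in none. In the windows of the 10 genes this made 1 of 5 CGs in the BXD female (5.72% in the genome), 1 of 5 in the DXB female (6.08%), 1 of 5 in the DXB male (5.87%) and 0 of 12 in the BXD male (4.63%). All of these CGs lie in the window of Apoa2. Those of the BXD male lie near the start of Tomm40l (chr1:173152103-173152549). At chr1:173161046 the BXD male had 2 reads sorted to B6 and 0 to DBA, so the called CG was not tested in it. The same chromosome was high whether it came from the mother (BXD) or the father (DXB).

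**Figure D4:**
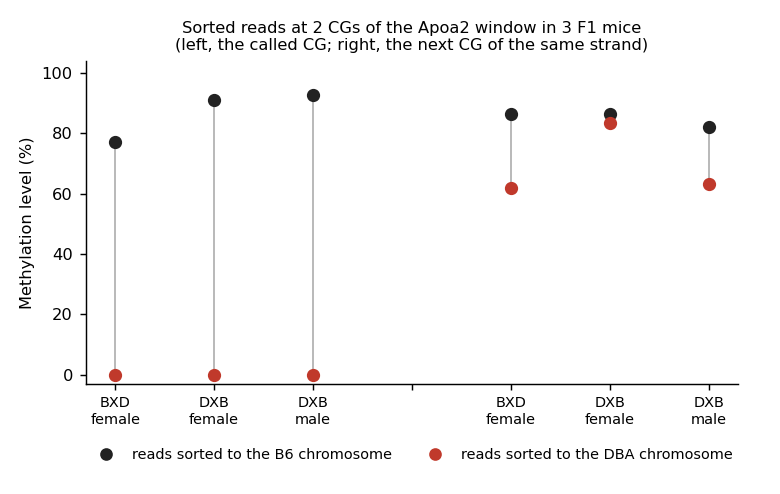
Methylation level (%) of reads sorted to the B6 chromosome (black) and to the DBA chromosome (red) at 2 neighbouring CGs of the Apoa2 window in 3 F1 mice. At the left CG the DBA reads are at 0 and the B6 reads at 77.3% to 92.9%, and at the right CG both are between 61.8% and 86.4%.

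In the window of Apoh the 3 called CGs lie in the long intron, from 43520 to 43087 bases upstream of the RefSeq start. At chr11:108213091 the level was 98.0% of 51 reads in the B6 female, 0 of 38 in the DBA female, 25.6% in the BXD female, 44.6% in the DXB female and 39.5% in the DXB male. At chr11:108213445 it was 98.2% of 57 reads and 0 of 60 in the female parents, and at chr11:108213524 it was 87.1% of 62 and 0 of 110. Both of the latter had 10 reads in the female parents only. CGs of the same stretch were methylated in both strains, with 90.2% and 94.7% at chr11:108213074 and 93.0% and 95% at chr11:108213347 in the B6 and DBA female. At chr11:108213613 the level was 91.9% in the B6 female, 61.5% in the library labelled B6 male, 49.1% in the DBA female and 57.9% to 68.9% in the F1 mice. The library labelled B6 male, in which 48.2% of the sorted calls near Apoh carry the DBA tag, was there within the range of the F1 mice, and without it the B6 value rests on the female alone. None of the 3 calls uses that library.

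In the window of Apoc1 both called CGs lie past the end of the gene and were higher in DBA. At chr7:20274417 the level was 7.69% of 13 reads in the B6 female, 63.6% of 11 in the DBA female, 30% of 20 in the DBA male, 20% of 55 in the BXD male and 38.5% of 13 in the DXB male. At chr7:20274511 it was 0 of 12 in the B6 female, 63.6% of 11 in the DBA female and 16.4% of 55 in the BXD male. The DBA male was closer to the F1 mice than to the DBA female, and the opposite strand of the second CG (chr7:20274512) was at 38.9% in the B6 female. These calls stand on 11 to 13 reads on each side, and at a minimum of 20 or 50 reads neither could be tested. With Fisher's exact test, adjusted over all CGs tested, 5 of the 223 CGs in the windows were called, against 0.508% of all CGs. Neither CG of Apoc1 was among them. The CG at chr7:20274417 belongs to an MspI site.

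**Figure D5:**
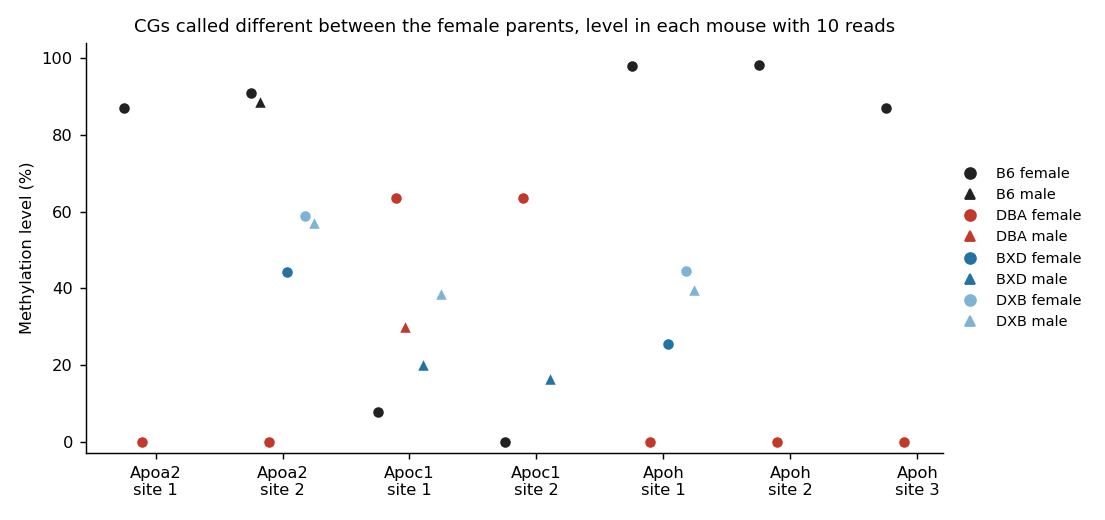
Methylation level (%) in each mouse with 10 reads at the 7 CGs called between the female parents, numbered within each window by position. At the 5 CGs of Apoa2 and Apoh the DBA female is at 0 and the B6 female at 87.0% or more, with the F1 mice between them where read, and at the Apoc1 CGs the DBA female is at 63.6%.

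In all 5 CGs that were higher in B6, no read of the DBA female kept a cytosine. The files give counts of methylated and unmethylated reads and no base calls. A DBA sequence with a T in place of the cytosine of the CG and an unmethylated cytosine in DBA give the same counts, so they cannot be told apart here. When the reads with a SNP were left out, 4 of the 200 CGs that could then be tested were called, against 0.289% of all CGs.

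Across all mice, limma was fitted to the window means with strain group and sex in the model and with Benjamini-Hochberg adjustment over the 12337 genes. The DBA minus B6 difference was -2.21 ± 3.34 percentage points (SE) for Apoe, -1.09 ± 1.43 for Apoh and -1.02 ± 2.04 for Apom, each with an adjusted limma p of 0.9998. None of the 3 members passed an adjusted p of 0.05, nor an unadjusted one, while 0.373% of all genes did (46, and 756 at an unadjusted p below 0.05). Without the library labelled B6 male the difference of Apoh was -0.0818 ± 2.10, and those of Apoe and Apom turned to 0.890 ± 4.32 and 1.58 ± 2.40. The fit to single CGs called 0 of the 42 members' sites against 0.0774% of 176951 (137 sites), and at an unadjusted p below 0.05 were 0 of the 42 and 11071 of all sites.

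The DBA male had the fewest sites with 10 reads, and 3 more members could be fitted without it, which leaves DBA with 1 mouse that is assumed to vary like the others. In this fit 0 of 6 members passed, against 0.137% of 15304 genes (21). Of the 6 members, Apoa4 had the largest difference in this fit, at the sites past its end. Their mean over 5 CGs was 68.0% in the B6 female, 64.1% in the B6 male, 76.1% in the DBA female, 72.9% in the BXD female, 79.5% in the BXD male, 68.6% in the DXB female and 73.1% in the DXB male. The DBA minus B6 difference was 11.2 ± 3.51 points with a limma p of 0.0221 and an adjusted p of 0.498, so it did not pass. In the same 7 mice it was -5.19 ± 4.57 for Apob and -3.08 ± 2.70 for Apoa2, with adjusted limma p of 0.932 for both. In the males, DBA was lower than B6 at 2 of the 3 CGs past the end of Apoa4 read in both. At chr9:46051860 the DBA male was at 64.3% and the B6 male at 87.9%, at chr9:46051931 at 57.1% and 70.7%, and at chr9:46052025 at 70.4% and 70%. With 10 kb flanks, 3 CGs of Apoa4 could be fitted in all 8 mice, and the difference was 0.0617 ± 5.24. The wider window reaches chr9:46040189 between Apoa1 and Apoc3, and that of Apoc3 gave the same difference. This value is therefore not one for the sites past the end of Apoa4 alone. Without the wider flanks, 2 CGs of Apoa4 had 10 reads in all 8 mice, too few for a fit. Their mean was 76.8% (B6 female), 79.0% (B6 male), 79.6% (DBA female) and 67.3% (DBA male). DBA was thus higher than B6 among females and lower among males.

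The level was also fitted at each CG as a slope on the number of DBA chromosomes (0, 1 or 2), with 10 reads in at least 6 mice. Of the members' 115 sites 0 passed, against 0.118% of 507773 (599). The steepest slope was that of chr1:173161046 in the Apoa2 window, which fell by 85.3 ± 9.88 points from B6 to DBA with a limma p of 0.00146 and an adjusted p of 0.303. In all, 7 of the 115 had an unadjusted p below 0.05, as did 30846 of all sites, and without the library labelled B6 male 3 of the members' 103 sites and 29952 of 459805. Among them, chr11:108246057 in the long intron of Apoh had -35.6 ± 6.94 (adjusted limma p 0.467), and without the library labelled B6 male -35.6 ± 11.05 (adjusted 0.729).

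The F1 mice were set against the parents. The mean was 5.74 ± 4.66% in the 4 F1 mice and 3.85 ± 2.17% in the 4 parents for Apoe, 6.25 ± 0.341% and 6.43 ± 1.05% for Apoh, and 14.2 ± 1.49% and 15.9 ± 2.05% for Apom (SD). The two-sided exact permutation test over 70 assignments gave p = 0.6 for Apoe, 0.914 for Apoh and 0.229 for Apom, where 0.0286 is the smallest p it can give. In limma the F1 minus parent difference was 1.89 ± 2.36 points for Apoe (adjusted p 0.819), -0.185 ± 1.01 for Apoh (0.964) and -1.67 ± 1.44 for Apom (0.762). Without the library labelled B6 male the difference of Apoh turned to 0.321 ± 1.33. None of the 3 passed, and neither did any gene (0.0% of 12337), with 992 genes and 0 members at an unadjusted p below 0.05.

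At single CGs the F1 contrast also called no site (0 of 42 members' sites, 0.0% of 176951, with 14049 at an unadjusted p below 0.05). The 1 member site under that limit was chr9:46040189 between Apoa1 and Apoc3, with means of 37.6% in the F1 mice and 18.1% in the parents. The difference was 19.5 ± 5.91 points, with a limma p of 0.0341 and an adjusted p of 0.599. This site is an MspI site.

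The direction of the cross and the sexes gave no call in the members. BXD minus DXB was 3.02 ± 3.34 points for Apoe, -0.178 ± 1.43 for Apoh and 1.41 ± 2.04 for Apom in limma, and 0 of 3 passed, as 0.0% of 12337 genes did (195 at an unadjusted p below 0.05, 0 of them members). Females minus males was 1.98 ± 2.36 for Apoe, -0.484 ± 1.01 for Apoh and -0.830 ± 1.44 for Apom, and 0 of 3 passed, against 0.762% of genes (94, and 865 at an unadjusted p below 0.05, 0 of them members). Without the library labelled B6 male these differences of Apoh were -0.178 ± 1.63 for the cross and 0.0226 ± 1.33 for the sexes, and females minus males of Apom turned to 0.469 ± 1.52. On the same 7 CGs, BXD minus DXB of Apoe was -2.13 without the BXD female and 8.17 without the BXD male (adjusted limma p 0.990 and 0.931).

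Other genes of lipoprotein metabolism were taken from a list of 51, of which 33 had 3 CGs in all 8 mice. Their windows had a median of 32.8%, against 27.4% over all genes. For comparison, 18 of 36 genes of complement and coagulation, secreted by the same cells, had a median of 45.6%, and 19 of 27 genes of lipid synthesis had 22.6%. Between the strains 1 of 33, 0 of 18 and 0 of 19 passed in limma, against 0.373% of all genes. The one was Mttp, the microsomal transfer protein that loads lipid onto the Apob product. Its mean was 92.6% in the B6 female, 96.0% in the B6 male, 70.2% in the DBA female, 66.9% in the DBA male and 76.1% to 82.5% in the 4 F1 mice. The difference came mostly from 1 of its 4 CGs, chr3:137785715, given here with its neighbour in capitals on the plus strand.
Mttp, chr3:137785690-137785721, plus strand: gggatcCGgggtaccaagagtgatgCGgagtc
At this CG the level was 89.1% in the B6 female and 97.7% in the B6 male, 0 of 18 and 0 of 105 reads in the DBA female and male, and 39.5%, 45.2%, 59.4% and 39.7% in the BXD female, BXD male, DXB female and DXB male. The neighbour, chr3:137785696, was at 83.0% or more in all 8 mice. It too was lower in DBA, with 98.4% and 100% in the B6 female and male and 88.9% and 83.0% in the DBA female and male. As at the CGs of Apoa2 and Apoh, a T in the DBA sequence and an unmethylated cytosine cannot be told apart here.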

How the data were processed

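RRBS libraries of liver DNA from 8 mice were used. The authors digested DNA with MspI, aligned reads to mm9 with BS Seeker and assigned reads with a SNP to a strain. How duplicate reads were handled, and the release of BS Seeker, are not given in the sources used. For each mouse and class of reads the authors deposited counts of methylated and of unmethylated reads per cytosine, and the level as a fraction. The authors also deposited tables of their own comparisons, with mean levels, differences and p-values, which were not used, nor were 12 columns of single mice in them.

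Counts were added over the classes of reads, and levels in percent were taken from the sums at CGs with at least 10 reads. A level on 10 reads has steps of 10 points, and intervals hold counting error only. Each mouse was 1 library, and the p-values of limma and of the permutation test measure the spread between these mice. Those of Fisher's exact test compare the reads of 2 libraries and hold counting error only. Sites were joined to GENCODE and RefSeq genes on NCBIM37, with positions counted from 1. The strain rule for single CGs is that of the paper. Window means and single CGs were fitted with limma 3.58.1 in R 4.3.3, with group and sex, adjusted over all windows or CGs tested. Other steps used samtools 1.23.1 and Python 3.11.15 (pysam 0.24.0, numba 0.67.0, scipy 1.17.1, matplotlib 3.10.9, pandas 2.3.3, numpy 2.4.6). The fit was tested on simulated data.

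All 10 genes are named, with CGs that were called, that bound low-methylated stretches or that lie nearest to a start, and other genes whose windows overlap. The genes, the gene lists and the rules were chosen with earlier results of these data known. Groups of neighbouring CGs, the fits on the number of DBA chromosomes and without the DBA male, the restriction to CGs outside MspI sites, and the naming of Mttp, Apoa4 and chr9:46040189 for their differences were chosen after the data were seen. Alternatives changed the minimum of reads, the difference, the flank, the strands, the weighting, the scale and the mice used.
A few items are not reported here.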

Additional observations from a re-analysis of the deposited data

Results flagged for a closer look

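Among the window means, that of Apoh in the library labelled B6 male, 7.98%, stood apart from the other 7 mice, whose highest was 6.54%. In that library 48.2% of the sorted CG calls within 250 kb of Apoh carried the DBA tag, against 0.623% in the B6 female, and near Apoa2 the share was 3.54% against 0.405%. Of 9 groups of values examined in this way, chance would place about 1 in 20 apart.

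For Apom the DBA minus B6 difference was 0.877 points in the female pair and -2.92 points in the male pair. With 1 mouse on each side of each pair, the difference between the sexes was not tested.

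Outside CG, the methylated share of calls in the windows was highest in the DXB female, 1.18% of 30777 calls, and lowest in the DBA male, 0.255% of 18800. The share over each whole library was not taken, so a trait of the windows cannot be told from one of the library.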

How the results depend on the processing

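For the 10 genes, no alternative made a member pass in limma. The female strain calls (7 of 223, 0.549% of all CGs) became 2 of 128 at 50 reads (0.477%), 11 of 223 above 30 points (1.60%), 3 of 83 in the gene bodies (0.549%) and 4 of 200 without SNP reads (0.289%). They were 5 of 176 at 20 reads (0.521%), 5 of 223 with Fisher's exact test, adjusted (0.508%), and 6 of 167 outside MspI sites (0.698%). The male calls (0 of 72) became 1 above 30 points (1.54% of all). The 3 low-methylated stretches became 10 with reads in at least 4 mice. The mean of Apoh (6.34%) became 0.369% outside MspI sites, 19.2% at 20 reads, 11.7% at 5 reads, 1.48% in the gene body, and 6.11% to 12% when each mouse was left out, which also changes the CGs read in all the others. Without the DBA male (12%) 35 CGs were read and without the DBA female (10.1%) 19, against 18, and on the same 18 CGs no mean passed 6.44%. That of Apom (15.1%) became 9.24% with 10 kb flanks, 10.3% outside MspI sites, 11.9% at 5 reads and 24.5% weighted by coverage.

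Of the differences of single genes, 238 kept their direction and side and 47 reversed, none past the threshold. Most alternatives for the cross and the sexes, and those on the same CGs, were added after the data were seen. Weighted by coverage, the strain difference was 0.358 for Apoe and 0.903 for Apoh, the F1 difference -1.22 for Apoe and 3.09 for Apom, BXD minus DXB -2.31 for Apom, and females minus males -1.01 for Apoe and 6.16 for Apom. At 5 reads the F1 difference of Apoe was -0.229, BXD minus DXB -1.90 for Apoe and 0.258 for Apoh, and females minus males -0.149 for Apoe. Outside MspI sites the F1 difference of Apoh was 0.435, and females minus males 0.223 for Apoh and 0.716 for Apom. Leaving out each mouse, on all CGs then read or on the same CGs, the strain difference ran from -5.72 to 1.31 (without the library labelled B6 male; 0.949 without the DBA female) for Apoe, -3.01 to -0.0818 for Apoh and -3.62 to 1.58 for Apom, and the F1 difference from -0.679 on the same CGs (-0.428 otherwise, both without the BXD female) to 4.47, -0.692 to 0.321 and -2.97 to -0.368. For Apoh and Apom the upper end of each was that without the library labelled B6 male, and without the BXD male the F1 difference of Apoh was 0.229. BXD minus DXB ran from -3.71 (13 CGs) to 8.17 for Apoe, -1.01 to 0.651 for Apoh and -1.13 to 3.96 for Apom, and females minus males from -0.596 to 3.73, -0.898 to 0.966 and -2.10 to 0.469 (without either B6 mouse). On the same CGs BXD minus DXB of Apoe reached -2.13, and females minus males of Apoh 0.0226 without either B6 mouse. Causes were not tested. Over all genes the strain calls (46) ran from 2 to 32 and the sex calls (94) from 27 to 246 without a mouse, and with other alternatives from 0 to 63 and from 0 to 116. Strain calls at single CGs (137) were 0 when any 1 mouse was left out, 74 at 20 reads, 140 on the arcsine scale and 298 without sex. The slope on DBA chromosomes, over more sites, gave 599, and 254 without the library labelled B6 male. Each group held 1 female and 1 male, so sex in the model was also the replicate block. Without this block 0 of 3 members passed, and the strain calls over all genes were 43.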

Other observations

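Of the other lipoprotein genes on the list, the window of Scarb1, the receptor for high density lipoprotein, was at 60.5 ± 2.69% (SD, n = 8 mice). Lipc, the hepatic lipase, was at 74.0 ± 2.37%, and Sort1, a sorting receptor, at 96.8 ± 0.860%. These genes were picked from the list for their roles, and the spread over the mice was smaller than the distance between any of them. Apoc2 and Apoc4, which overlap in 1 window beside Apoc1, had the same 7 sites at 24.3 ± 3.49%.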
